A study of Mus musculus with 18 samples.

Results

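The adult B lineage cells described here are 1162 of the 5985 cells in the library of adult hematopoietic progenitors (HPs), or 19.4% (95% interval 18.4 to 20.4%), and of the 56201 cells in the whole series. They were chosen on measured values. A cell was taken when its unique molecular identifier (UMI) counts, which stand for distinct transcript molecules, summed to 3 or more over Cd79a, Ebf1, Pax5 and Vpreb1 and at least 2 of these genes were detected. The library was made by 10x Genomics 3′ single-cell RNA sequencing with oligonucleotide-tagged antibodies (CITE-Seq) from CD45+ Lineage- Kit+ bone marrow (BM) cells of adult C57B6/J mice, with marrow crushed from tibias, femurs, pelves and spines of several pooled animals. The same sort was made from E16.5 and E18.5 fetal BM and from P0 BM of the same strain. There were 2 libraries at E16.5 and 1 at E18.5 and P0. The younger marrow came from whole skeletons, and for fetal marrow the paper leaves out the red cell lysis used on adult marrow. None of the mice carried a transgene or received a treatment. With 1 adult HP library there is no test between animals. Every interval below is an exact 95% interval that covers counting error only, a limit given for a count of 0 is the level that 3 counts would have, and each adult value describes 1 pool of mice.

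B lymphopoiesis in adult marrow runs from pro-B cells, which rearrange the immunoglobulin heavy chain locus, through dividing large pre-B cells and resting small pre-B cells, which rearrange the light chain loci, to immature B cells with a complete receptor. The transcription factors Ebf1 and Pax5 set and hold B identity. Between heavy and light chain rearrangement the pre-B receptor pairs the heavy chain with a surrogate light chain made of the Vpreb1 or Vpreb2 and Igll1 products, and Cd79a and Cd79b carry its signal.

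The adult B lineage cells held 7440329 UMIs, with a median of 3510 per cell (quartiles 2049.5 and 8728.25, range 418 to 37899), against a median of 7810 in the 4823 other adult HP cells. Their barcodes overlapped with those of other libraries in 33 cells (2.84%), against 788 of all 5985 adult HP cells (13.2%), whose median was 574.5 UMIs. Without those barcodes the share of B lineage cells was 21.7%. Transcripts of other lineages were present throughout. All 6 neutrophil markers were detected, at 9579 CPM (UMIs of the genes scaled to 1000000 UMIs of the group) in sum against 41741 CPM in the other adult HP cells, and 1148 of the 1162 cells held 2 or more markers of some other lineage. With the neutrophil and myeloid progenitor markers not used, this number was 285. The part of such transcripts in the results below was not tested.

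Of the genes the rule and the results turn on, Vpreb1 (chr16:16868403-16870843, minus strand), Vpreb2 (chr16:17980428-17981273, plus strand) and Igll1 (chr16:16860671-16863985, minus strand) lie on chromosome 16 and Vpreb3 (chr10:75943057-75949657, plus strand) on chromosome 10. The positions are from the GENCODE annotation of GRCm38, which is the build of the deposited counts (mm10). Their promoters are shown because of how these genes varied across the deposited codes. The first 3 were at least 2-fold higher in Pre/Pro-B2 than in the other B lineage cells and at least 2-fold lower in Bcell3 and Bcell4. Vpreb3 was higher in Pre/Pro-B2 too, but was past 2-fold in neither Bcell3 nor Bcell4. Each line is the 113 bases upstream of the GENCODE start of the coding transcript, taken from RefSeq's GRCm38.p6 and printed 5′ to 3′ on the gene's strand. The RefSeq start is the same base in all but Vpreb2. Capitals mark CAGGTG, an E-box of the kind that E proteins such as Tcf3 bind, on either strand.
Vpreb1, chr16:16869256-16869368: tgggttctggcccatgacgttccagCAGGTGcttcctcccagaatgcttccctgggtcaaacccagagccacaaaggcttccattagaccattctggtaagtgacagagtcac
Vpreb2, chr16:17980315-17980427: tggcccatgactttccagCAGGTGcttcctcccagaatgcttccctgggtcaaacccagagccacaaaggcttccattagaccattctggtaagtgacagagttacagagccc
Igll1, chr16:16863986-16864098: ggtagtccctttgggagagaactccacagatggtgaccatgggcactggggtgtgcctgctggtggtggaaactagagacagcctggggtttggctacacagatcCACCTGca
Vpreb3, chr10:75948187-75948299: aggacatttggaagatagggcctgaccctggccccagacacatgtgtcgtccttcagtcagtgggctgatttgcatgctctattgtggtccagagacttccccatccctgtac
The Vpreb1 window overlaps an exon of a longer non-coding transcript of the same gene and the Vpreb3 window an intron of a longer Vpreb3 transcript, while the Vpreb2 and Igll1 windows overlap no annotated transcript. CAGGTG began at position -88 in Vpreb1, at -95 in Vpreb2 and, on the minus strand, at -8 in Igll1, and was not in the Vpreb3 window. It was in 7.99% of all 32851 promoter windows of this length, searched on both strands. CCCNNGGG, the letters at the centre of sites that Ebf1 binds, was in none of the 4 windows and in 5.98% of all. Whether either motif has a part in the levels of these genes was not tested. Vpreb1 and Vpreb2 shared a run of 91 identical bases here, which holds their CAGGTG. Their transcripts were identical at 97.4% of 759 aligned bases. The split of counts between Vpreb1 and Vpreb2 is therefore uncertain.

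Among the adult B lineage cells all 4 rule genes were detected in 423, 3 in 464 and 2 in 275. The rule's edge was thinly filled. It took in 30 cells with a sum of exactly 3 UMIs, of which 70.0% carried a B cell code in the deposited clustering, and left out 16 cells with 2 UMIs in 2 genes, of which 56.3% did. A further 50 cells were left out with 3 or more UMIs in a single gene, and 78.0% of those carried a B cell code. Ebf1 was detected in 98.7% of the cells taken, Cd79a in 89.8%, Vpreb1 in 66.1% and Pax5 in 58.1%. The label was checked on B cell genes that the rule did not use: Cd79b was detected in 83.6% of the cells taken and 15.3% of the others, and Vpreb3 in 90.3% against 6.14%. The 5 T cell markers listed summed to 4.97 CPM in the cells taken and 7.30 CPM in the others, and Cd3g among them had 3 UMIs in the cells taken.

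In the deposited clustering 1052 of the 1162 cells (90.5%, 88.7 to 92.2%) lay in 4 codes named for B cells, and 87 cells of those codes did not pass the rule (median 1129 UMIs). Pre/Pro-B1 was the most frequent, with 430 of its 441 cells (37.0% of the B lineage cells). Bcell3 gave 282 of its 347 cells, Pre/Pro-B2 242 of 246 and Bcell4 98 of 105. The codes differed in depth and in the deposited cell cycle phase. Pre/Pro-B1 (median 7835 UMIs) was 0.930% G1, 39.1% S and 60.0% G2M, and Bcell4 (4745 UMIs) held no cell called G1 and 68.4% called G2M. Bcell3 (2030.5 UMIs) was 77.7% G1 and Pre/Pro-B2 (2170 UMIs) 81.0% G1. The codes were made by clustering the same transcripts, so the differences between them given below are a description.

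Because the rule chose on expression, the comparison with the other adult HP cells is also a description. Of 11950 genes with at least 50 UMIs in the groups together, 893 (7.47%) were at least 2-fold higher in the B lineage cells and 1616 (13.5%) at least 2-fold lower, and the median gene differed by -0.05 on the log2 scale. The largest ratios above 100 CPM were those of Igll1 (464 against 1.10 CPM), Pax5 (176 against 0.502), Ebf1 (1846 against 6.22), Vpreb2 (154 against 0.618), Lef1 (262 against 1.12), Vpreb3 (1693 against 7.51), Cd79a (801 against 3.73), Vpreb1 (1114 against 5.33), Akap12 (149 against 1.04) and Cplx2 (163 against 1.26). Of these, 8 belong to the lists of rule genes, pre-B receptor genes and B transcription factors, and Akap12, a kinase-anchoring protein, and Cplx2, a regulator of vesicle fusion, do not. The largest ratios in the other direction were those of the basophil and eosinophil granule genes Prss34 (2.69 against 247 CPM), Mcpt8 (6.99 against 206) and Prg2 (8.87 against 188), the mast cell protease gene Cpa3 (12.2 against 115), the globin genes Hba-a2, Hbb-bs, Hba-a1 and Hbb-bt, and C1qtnf12 and Tnfaip2.

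Transcription factors of B cell development were mostly higher. Past 2-fold were 11 of the 18 listed, with a list median of 1.38 on the log2 scale, and Spi1, the myeloid and early lymphoid factor PU.1, was lower (46.4 against 101 CPM). Lef1, a Wnt pathway factor of pro-B cells, and Id3, an inhibitor of E proteins (227 against 2.45 CPM), had the highest ratios of the list. Foxo1, which drives Rag expression, was at 77.1 against 3.61 CPM and Tcf3, the E2A gene, at 141 against 46.7 CPM.

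Pre-B receptor and signalling genes were 9 of 12 higher and none lower, with a list median of 4.06. Cd79b, the partner of Cd79a, was at 405 against 19.3 CPM, and Blnk, the adaptor below the receptor, at 220 against 3.30. Of the recombination genes 6 of 12 were higher and none lower. Rag1, which cuts the antigen receptor loci with Rag2, was at 87.0 against 0.637 CPM, and Rag2 at 41.4 against 1.47. Dntt, the terminal transferase that adds untemplated bases at the junctions, was at 410 (396 to 425) against 38.2 CPM and was detected in 54.3% of the B lineage cells and in 6.66% of the others. Of the end-joining genes Xrcc6 and Lig4 were among those higher, while Xrcc4 and Prkdc stood on neither side.

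Cytokine and homing receptors were mixed, with 4 of 13 higher and 2 lower. Il7r, the receptor for the main growth factor of mouse pro-B cells, was at 134 (126 to 143) against 8.11 CPM. Kit, the antigen the cells were sorted on, was at 47.2 (42.4 to 52.4) against 118 CPM, with a Kit UMI in 16.0% against 50.1% of the cells, or 3.37% against 12.3% once each cell was thinned to 1000 UMIs. The B lineage cells were therefore the lower of the groups for the transcript of their own sort antigen. Antibody counts cannot show the protein here, since the CD117 antibody was at 0 in every adult HP cell. Ptprc, which encodes CD45, was at 93.1 against 77.3 CPM.

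Of the other lists, mature B cell genes were 10 of 15 higher, immunoglobulin constant regions 6 of 8 higher and 1 lower (Igha), and plasma cell genes 2 of 4 higher. In the other adult HP cells 5 cells held 98.7% of the Igha UMIs and 89.3% of the Igkc UMIs. Without the 5 highest cells of each group Igha was at 0.539 against 0.871 CPM, within 2-fold, and Igkc at 283 against 43.1 CPM, where with all cells it was at 588 against 403. Of the uncommitted progenitor genes Ly6a and Ly6d were higher and Cd34, Kit and Gata2 lower. Lists of other cell types were low: the 6 neutrophil, 5 myeloid progenitor, 5 monocyte, 7 erythroid, 4 megakaryocyte, 5 mast cell and 5 eosinophil and basophil genes tested were all past 2-fold lower. Of the S phase genes 1 of 10 was higher, of the mitosis genes 2 of 10, and of the RNA quality genes none of 5. Of 10 apoptosis regulators Bcl2l1 was higher and Bcl2, Bbc3 and Pmaip1 lower, and of 5 fetal-type genes Hmga2 and Igf2bp2 were lower. The lists for T cells (1 of 3), NK cells and ILCs (4 of 6), dendritic cells (2 of 5), HSCs (2 of 4) and stroma (4 of 4) also had lower members, and Klrb1c and Ly6a were the higher ones among them. Of the 4 antigens of the informative antibodies Ly6a was higher.

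**Figure D1:**
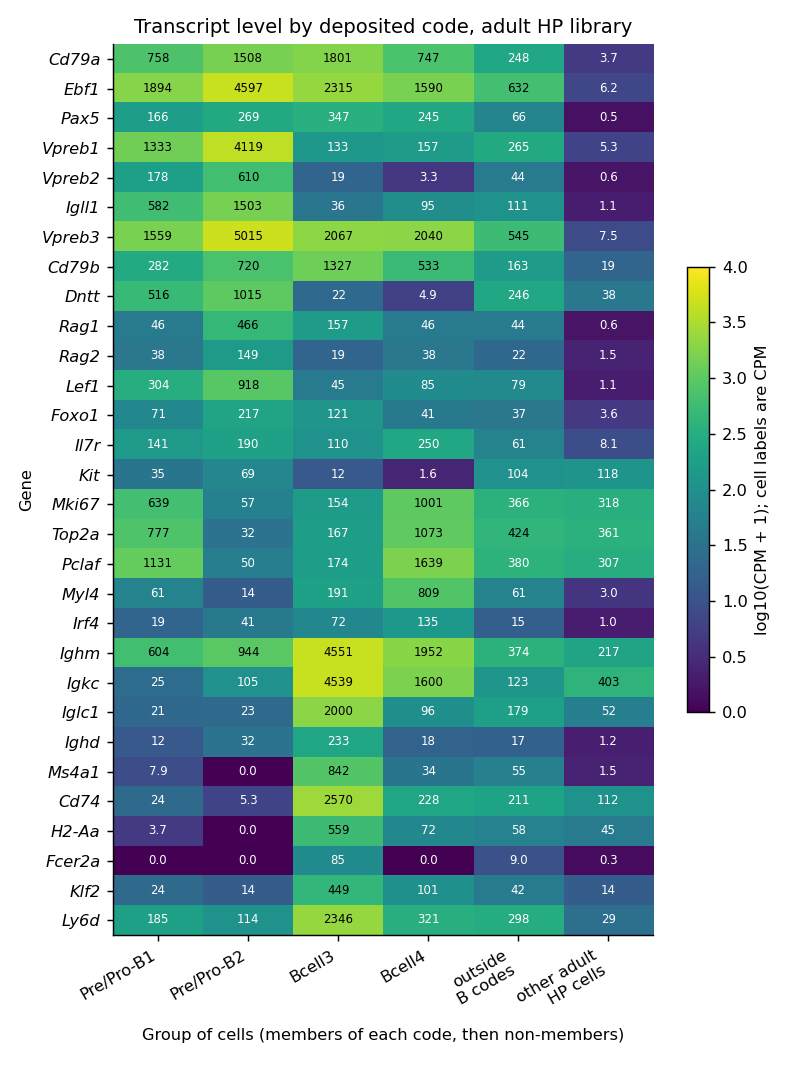
Level of B lineage, immunoglobulin and cell cycle genes in B lineage cells of the 4 deposited B cell codes, in those outside them and in the other adult HP cells, coloured by log10(CPM + 1) and labelled in CPM. Among the 4 codes Vpreb1, Igll1 and Dntt are highest in Pre/Pro-B2 (4119, 1503 and 1015 CPM), Ighd, Ms4a1 and Cd74 in Bcell3, and Mki67 and Top2a in Bcell4.

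Pre/Pro-B1 cells expressed the surrogate light chain, Dntt and cell cycle genes together. Vpreb1 was at 1333 (1297 to 1369) CPM, Igll1 at 582 (559 to 606) and Dntt at 516 (494 to 539). Mki67 was at 639 CPM and Top2a, the replication-linked topoisomerase, at 777 CPM, with an Mki67 UMI in 90.0% of the cells. In thinned cells mitosis genes made up 0.340% of UMIs on average, against 0.130% in the other adult HP cells. Against all other B lineage cells, 174 of 8273 genes (2.1%) were at least 2-fold higher and 819 (9.9%) lower. Markers of other cell types moved with this code: neutrophil markers were 6 of 6 lower (2383 against 18092 CPM), myeloid progenitor markers 5 of 5, monocyte markers 4 of 4 and erythroid markers 5 of 5, as were Malat1 and Neat1. The cells compared with here include the 110 B lineage cells outside the B codes, of which the 12 of code Neu3 had neutrophil markers at 283369 CPM. Against the other B codes alone, a comparison chosen after seeing the data, 466 of 7511 genes (6.2%) were higher and 770 (10.3%) lower. There the neutrophil markers were 3 of 6 lower (2383 against 5035 CPM), the myeloid progenitor markers 5 of 5, the monocyte markers 1 of 3 and the erythroid markers 2 of 4. Mature B genes were 14 of 14 lower there, and 12 of 14 against all other B lineage cells. In both comparisons immunoglobulin constant genes were 6 of 7 lower and transcription factors 6 of 17 lower. Against all other B lineage cells the highest ratios were those of Pnp (262 CPM), a purine enzyme, Tyms (228 CPM), the thymidylate synthase, Bfsp2 (422 CPM), Prdx4 (208 CPM) and Crip1 (3424 CPM). Of the 7 immunoglobulin constant genes tested, the 1 that was higher was Ighg2b, an IgG heavy chain constant region, at 38.7 (32.9 to 45.3) CPM in 17.7% of Pre/Pro-B1 cells, against 7.45 CPM in Bcell3 and 0.0966 CPM in the other adult HP cells.

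Of the 4 codes Pre/Pro-B2 had the highest levels of the surrogate light chain genes and of Dntt, Rag1 and Rag2, and the lowest levels of Mki67 and Top2a. Vpreb1 was at 4119 (3953 to 4290) CPM, Igll1 at 1503 (1403 to 1608) and Vpreb2 at 610 (547 to 678). Dntt was at 1015 (934 to 1102) CPM, Rag1 at 466 (411 to 526) and Rag2 at 149 (119 to 185). The same cells had Mki67 at 56.9 and Top2a at 32.0 CPM, and mitosis genes made up 0.0228% of UMIs in thinned cells. Against all other B lineage cells 1065 genes (12.9%) were at least 2-fold higher and 1285 (15.5%) lower. Recombination genes were 6 of 11 higher, among them the ligase Lig4 and the nuclease Dclre1c, and 2 lower, Hmgb1 and Hmgb2, abundant chromatin proteins that also mark dividing cells. With those abundant genes the whole list summed to 4122 CPM in Pre/Pro-B2, below the 9871 CPM of Pre/Pro-B1 and the 12130 CPM of Bcell4. All 10 S phase and all 10 mitosis genes were lower. Pre-B receptor genes were 5 of 12 higher and mature B genes 9 of 14 lower, with Ltb, a lymphotoxin subunit, higher (215 CPM). Lef1 reached 918 CPM, Sox4 521 CPM and Foxo1 217 CPM. The largest ratios were those of Smtnl2 (114 CPM), Selenom (333 CPM), Gm30948 (153 CPM), Rag1 and Ankrd33b (126 CPM). Markers of other lineages also moved with this code, and their part in these levels was not tested. Neutrophil markers were 4 of 6 lower (5093 against 9946 CPM), erythroid markers 4 of 5, myeloid progenitor markers 2 of 5 and mast cell markers 2 of 2, while F13a1 of the monocyte list was higher, as was Prg2 of the eosinophil and basophil list, with Mcpt8 lower. The sums of the neutrophil, myeloid progenitor, monocyte and erythroid lists turned direction against the other B codes alone, where 996 genes (13.3%) were higher and 1062 (14.1%) lower. Neutrophil markers then summed to 5093 against 3017 CPM, with Ltf of the 6 past 2-fold, and lower. Myeloid progenitor markers were 5 of 5 higher (1133 against 476 CPM), as were F13a1 and Ly6c2 of 3 monocyte markers and Hbb-bt of 4 erythroid markers. The monocyte list summed to 156 CPM, against 52.9 CPM in the other B codes and 164 CPM in all other B lineage cells. The erythroid list summed to 226 CPM, against 187 and 463 CPM. RNA quality genes moved with this code: Malat1 and AY036118 were higher, and the list summed to 215878 CPM against 109404 CPM in the other B lineage cells.

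Bcell3 cells were low in the surrogate light chain genes and high in genes of the mature receptor. Vpreb1 was at 133 (107 to 163) CPM and Igll1 at 35.8 (22.9 to 53.2), while Vpreb3, which associates with newly made light chains, was at 2067 (1960 to 2179). Ighm, the heavy chain constant region of IgM (chr12:113418558-113422730), was at 4551 CPM, or 2937 without the 5 cells with the most UMIs. Ighd, of IgD, was at 233 (198 to 272) CPM against 12.2 in Pre/Pro-B1. All 14 mature B genes tested were at least 2-fold higher than in the other B lineage cells, where 727 genes (8.79%) were higher and 1438 (17.4%) lower. Ms4a1, which encodes CD20, was at 842 CPM, Cd74, the invariant chain of class II antigen presentation, at 2570 CPM and Fcer2a, which encodes CD23, at 85.0 CPM. The factors Spib (355 CPM), Ikzf3 (164 CPM), Bach2 (347 CPM) and Irf4 (71.5 CPM) were higher and Lef1 (44.7 CPM) lower. Of the pre-B receptor and signalling list 4 of 12 were higher (Cd79b, Syk, Lyn and Blk) and 2 lower (Vpreb2 and Igll1). Klf2 (449 CPM) and its target S1pr1 (155 CPM), the receptor for exit to blood, were higher as well. Cell cycle genes were lower, 10 of 10 in each list, and Kit was at 11.9 (5.15 to 23.5) CPM, with a UMI in 2.13% of the cells. Ly6d, a lymphoid surface marker, was at 2346 CPM. Fcmr, the IgM Fc receptor (188 CPM), and Tmem163 (115 CPM) had among the largest ratios, after Jchain and Ighv1-76, which were each held almost wholly by 1 cell. Of other lineages, whose part in these levels was not tested, neutrophil markers were 3 of 6 lower (7781 against 9758 CPM), erythroid markers 3 of 5 with Blvrb higher, myeloid progenitor markers 2 of 5 and megakaryocyte and mast cell markers 2 of 2 each. The eosinophil and basophil genes Mcpt8 and Prg2 were higher (13.4 and 25.3 CPM). Against the other B codes alone, where 714 genes (9.51%) were higher and 1232 (16.4%) lower, the sums of the neutrophil, myeloid progenitor, monocyte and erythroid lists turned direction too. Neutrophil markers were 5 of 6 higher there (7781 against 2628 CPM), myeloid progenitor markers 5 of 5 (1303 against 441 CPM) and erythroid markers 3 of 4, with Car2 lower. Of 3 monocyte markers Ly6c2 and Ms4a6c were higher there and F13a1 lower. The monocyte list summed to 136 CPM, against 53.4 CPM in the other B codes and 166 CPM in all other B lineage cells. Malat1, AY036118 and Neat1 of the RNA quality list were higher in both comparisons. The list summed to 205355 CPM, against 118831 CPM in the other B codes and 108739 CPM in all other B lineage cells.

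Bcell4 cells shared the low surrogate light chain of Bcell3 and the cell cycle genes of Pre/Pro-B1. Igll1 was at 94.6 (71.8 to 122) CPM, Vpreb2 at 3.26 and Dntt at 4.89, while Mki67 was at 1001 (924 to 1084) and Top2a at 1073 (993 to 1158). Against the other B lineage cells 314 genes (3.8%) were at least 2-fold higher and 1220 (14.7%) lower. Here too the neutrophil (6 of 6, 1978 against 10262 CPM), myeloid progenitor (5 of 5) and monocyte markers (4 of 4) were lower. Erythroid markers were 4 of 5 lower with Blvrb higher (282 against 460 CPM). Against the other B codes alone, where 249 genes (3.32%) were higher and 840 (11.2%) lower, neutrophil markers were 3 of 6 lower (1978 against 3360 CPM) and no myeloid progenitor or monocyte marker was past 2-fold. The erythroid sum turned direction there (282 against 180 CPM), with Blvrb higher and Car1 lower. Mitosis genes were 4 of 10 higher, or 2 of 10 against the other B codes, and in thinned cells they made up 0.471% of UMIs, the highest of the 4 codes. Il7r was at 250 (212 to 292) CPM, above the 110 to 190 CPM of the other codes. Irf4 (135 CPM), Bach2 (356 CPM), Spib (130 CPM) and Ikzf3 were higher, all but Spib also against the other B codes, and Lef1 and Bcl11a lower. The largest ratio was that of Myl4, a myosin light chain gene, at 809 (739 to 883) CPM, against 14.2 to 191 CPM in the other codes. Kit was at 1.63 CPM, a single UMI in 98 cells. Ighm was at 1952 CPM (1431 without the top 5 cells).

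Light chain transcripts divided the B lineage cells. A UMI of Igkc (chr6:70726435-70726966), Iglc1, Iglc2 or Iglc3 was in 501 of the 1162 cells (43.1%, 40.2 to 46.0%). The share was 96.8% in Bcell3 and 77.6% in Bcell4, against 15.1% in Pre/Pro-B1 and 16.9% in Pre/Pro-B2. The 4736 cells outside the B codes that did not pass the rule, taken as the background, had a share of 9.59% (8.76 to 10.5%) at a median of 7975 UMIs, and 6 of them held 5 or more light chain UMIs. Free RNA was not measured. Once every cell was thinned to 1000 UMIs, leaving out 36 B lineage cells and 946 of these others, the shares were 92.2% in Bcell3, 44.3% in Bcell4, 9.05% in Pre/Pro-B2 and 2.84% in Pre/Pro-B1, with 1.72% in the others. In Pre/Pro-B1, whose median depth of 7835 UMIs is close to that of the others, the thinned interval (1.47 to 4.90%) took in their level while the unthinned one (11.9 to 18.9%) lay above it. With at least 2 light chain UMIs required, 33.2% of the B lineage cells and 5.12% (3.23 to 7.64%) of Pre/Pro-B1 counted, against 1.20% (0.913 to 1.56%) of the others.

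**Figure D2:**
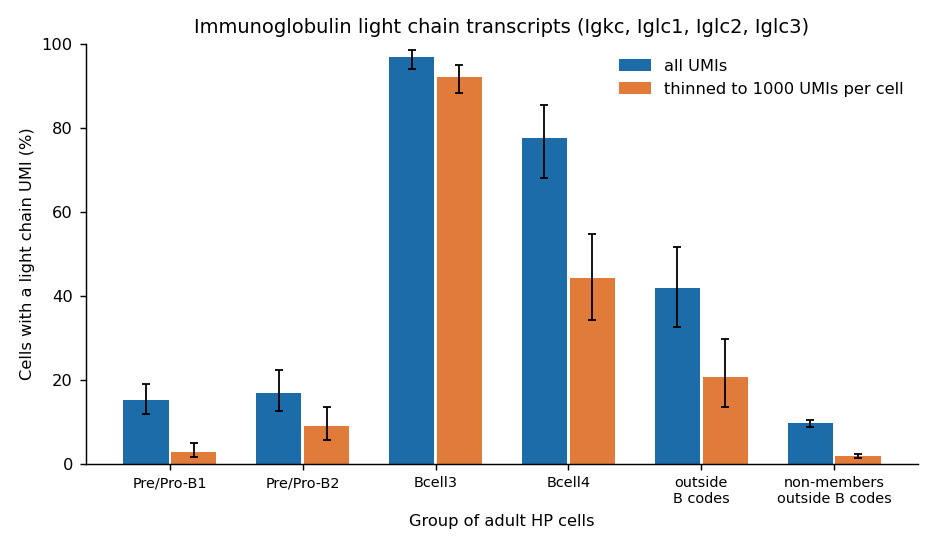
Share of cells with at least 1 immunoglobulin light chain UMI, from all UMIs and after thinning each cell to 1000 UMIs, with exact 95% intervals. Bcell3 stands at 96.8 and 92.2%, and the cells outside the B codes that did not pass the rule at 9.59 and 1.72%.

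Most light chain RNA came from few cells in some groups and from many in others. In Bcell4 a single cell held 927 of the 972 Iglc2 UMIs, and 5 cells held 72.5% of Igkc, so the level of Igkc fell from 1600 to 485 CPM without them. In Bcell3 a single cell held 1567 of 3045 Igkc UMIs, while the 5 highest cells held only 17.5% of Iglc1 and of Iglc2. Jchain, which joins IgM and IgA polymers in plasma cells, reached 790 CPM in Bcell3, with 525 of 530 UMIs in 1 cell. Lambda transcripts were widespread. Of the 273 Bcell3 cells with a light chain UMI, 46 had only kappa, 75 only lambda and 152 both. At 5 or more UMIs of a class 140 had lambda and 105 kappa, with 54 cells counted in both. In mice most B cells are known to carry kappa chains. Unlike Bcell3, Bcell4 was mostly kappa, with 63 cells of kappa alone and 2 of lambda alone. It had 29 cells with 5 or more kappa UMIs against 4 with lambda, and those 4 are counted in both. The comparison cells held lambda alone in 281 cells and kappa alone in 157. Iglc2 and Iglc3 are identical at 94.9% of aligned bases, so counts may be exchanged between them, and the part of free RNA in the lambda share was not tested.

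Cells with 5 or more light chain UMIs (274) and cells with none (661) also differed in the genes of the preceding stage. Igll1 was at 78.2 (64.2 to 94.3) CPM in the former and 601 (579 to 624) in the latter, Vpreb1 at 183 against 1465 and Dntt at 41.6 against 556. Ms4a1 was at 456 (421 to 492) CPM in the former and had no UMI in the latter. Rag2 was at 7.89 (3.94 to 14.1) against 50.1 (43.9 to 57.0) CPM, while Rag1, at 63.8 against 92.2 CPM, was within 2-fold. So was Kit, at 59.5 against 46.3 CPM, but in the 205 Bcell3 cells among the former it was at 11.4 CPM and in the 30 Bcell4 cells it had no UMI. The cells with and without light chain differ in code. Within Bcell4 Igll1 was at 95.2 CPM in the 30 cells with light chain and 100.04 CPM in the 22 without, Vpreb1 at 111 against 325 and Cd74 at 393 against 50.02, and in Bcell3 only 9 cells were without. The median depth was 2523.5 UMIs in the cells with light chain and 4506 in those without.

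The 110 B lineage cells outside the B codes (9.47%) lay in 14 other codes and were deep, at a median of 12997 UMIs. HSPC5, a code of stem and progenitor cells, held 28 of them, and MegP2, MyP5 and Neu3 held 12 each. Cells of most of these codes expressed the genes of their own code and B genes side by side. The 12 in Neu3 held the neutrophil markers at 283369 CPM, against 351253 in the rest of Neu3 and 3216 in B lineage cells of the B codes. The 11 in EryP2 held erythroid markers at 7236 CPM, against 8190 in the rest of EryP2 and 190 in the B codes. The 12 in MegP2 held megakaryocyte markers at 2072 against 2219 CPM. The pre-B receptor and signalling genes, which the rule did not use, summed to 899 CPM in the EryP2 cells, against 59.2 in the rest of EryP2. In Neu3 they summed to 1668 against 473 CPM, with 4370 CPM in B lineage cells of the B codes. In Eos/Bas4 the 4 cells were unlike their code, with eosinophil and basophil markers at 1081 against 19332 CPM. The 28 HSPC5 cells held Dntt at 801 CPM, against 309 in the rest of HSPC5 and 454 in the B codes, and Igll1 at 172 against 0.583 CPM. Whether any of these barcodes held more than 1 cell was not tested.

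Of the 29 antibodies in the deposited matrix, 4 had a median above 0 in some group of adult HP cells. The paper's reporting summary lists tagged reagents for these 4 alone, so whether the others were used on this library is not known. Cells positive for each of the 4, with a centered log-ratio (CLR) above 1 over the library, were compared with the transcripts. CD48, a marker of committed progenitors, was positive on 62.7% (59.9 to 65.5%) of the B lineage cells and 33.1% of the others, with median counts of 156 and 86. The share depended on the level taken as positive, from 12.6% at a CLR above 1.5 to 93.4% with the CLR over all HP libraries. Within the B codes it was highest on Pre/Pro-B1 (83.7%) and lowest on Bcell3 (32.3%). Median depth in these codes was 7835 and 2030.5 UMIs, and antibody shares were not matched for depth. Cd48 transcripts did not follow the antibody among B lineage cells, at 69.8 (63.3 to 76.8) CPM in positive and 77.6 (63.5 to 94.0) CPM in negative cells, whereas among the others they were at 105 and 35.0 CPM. Sca-1, a stem cell and lymphoid marker, was positive on 34.3% (31.5 to 37.1%) against 17.7%, and ranged from 47.2% of Pre/Pro-B1 to 3.06% of Bcell4. Ly6a, its gene, was at 23.3 CPM in positive and 2.99 CPM in negative B lineage cells, and at 155 against 7.16 CPM within Bcell3. CD135, the Flt3 receptor of early lymphoid progenitors, was positive on 5.08% against 10.1%, with 8.84% of Pre/Pro-B1 and no Bcell3 cell, where 3 of 282 would be 1.06%. CD150, a marker of HSCs, was positive on 11.4% (9.67 to 13.4%) against 15.1%, and on 24.8% (19.9 to 30.3%) of Bcell3. Slamf1, the CD150 gene, had 3 UMIs in the 70 positive Bcell3 cells, too few for a comparison.

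**Figure D3:**
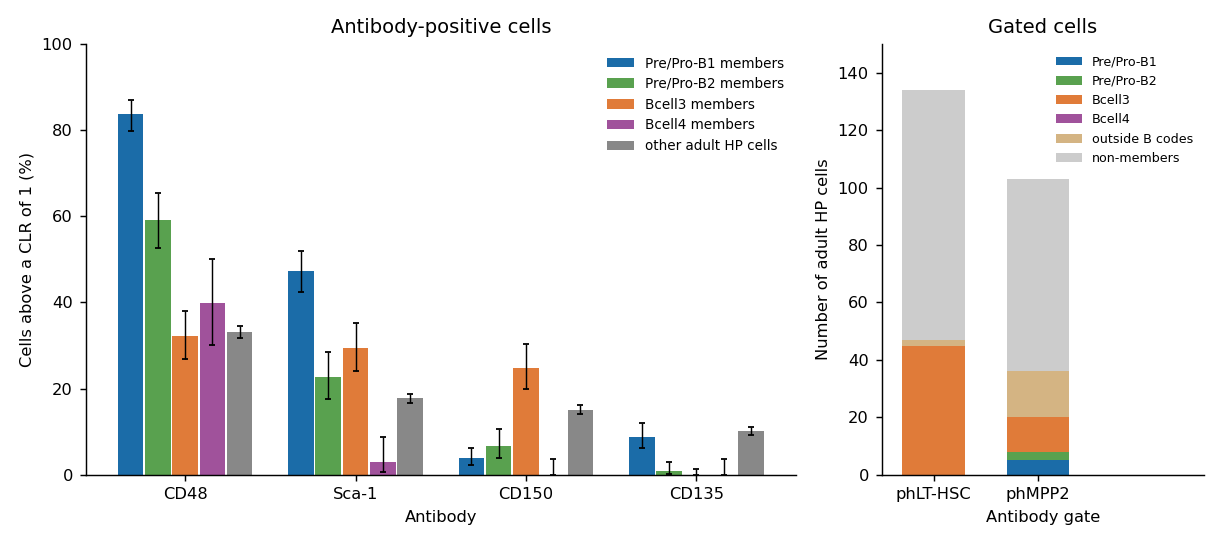
Left, share of antibody-positive cells (CLR above 1) among B lineage cells of each B cell code and in the other adult HP cells, with exact 95% intervals. Right, number of adult HP cells inside the phLT-HSC and phMPP2 antibody gates by code. Bcell3 makes up 45 of the 134 cells in the phLT-HSC gate.

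Antibody gates with the markers of the study's immunophenotypic (ph) stem and progenitor cells were rebuilt here at a CLR above 1, so they need not hold the cells the study gated. They took in B lineage cells. Of the 134 adult cells that were Sca-1+ CD135- CD48- CD150+ (phLT-HSC), 47 passed the rule (35.1%, 27.0 to 43.8%), and 45 of these were Bcell3. A negative call means a CLR of 1 or less, not an absence of counts. The 45 gated Bcell3 cells had a median of 70 CD48 counts, and none of them was at 0. This median was 62 in the 87 gated cells that did not pass the rule and 86 in the other adult HP cells. With other CLR levels, the CLR over all HP libraries or deeper cells only, the gate held 68 to 142 cells, of which 28.2 to 42.9% passed the rule. The paper scores fewer phLT-HSCs at every stage than any of these gates held. It states that most of its phLT-HSCs lay with stem and progenitor clusters, except at E16.5. In the phMPP2 gate, which differs in being CD48+, B lineage cells were 36 of 103 cells (35.0%, 25.8 to 45.0%). Of these, 12 were in Bcell3, 5 in Pre/Pro-B1, 3 in Pre/Pro-B2 and 16 outside the B codes. The paper itself reports that part of its adult phMPP2s fell in B-lymphoid clusters, a share it counted by cluster and not by this rule. Within the phLT-HSC gate the HSC genes Mecom and Hlf had no UMI in the 47 B lineage cells and 29 and 94 UMIs in the 87 others, at median depths of 2173 and 7276 UMIs. Procr had 4 UMIs in the others, too few for a comparison at these depths. Ly6a was present in both, with 21 and 25 UMIs.

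The 45 gated Bcell3 cells differed from the 237 Bcell3 cells outside the gate in transcripts that the gate did not use. Ighd was at 972 (788 to 1186) CPM in the gate and 103 (78.6 to 133) outside it, and Fcer2a at 431 (312 to 580) against 24.5 (13.4 to 41.1). H2-Aa, a class II chain, was at 2225 (1942 to 2537) against 268 (227 to 314) CPM, and Cd74 at 6053 against 1961. Mature recirculating B cells are known to express these genes, which were higher in the gate. Klf2 (641 against 415 CPM) and Ltb (852 against 331 CPM) of the mature B genes were higher too. Ms4a1 was not, at 712 (556 to 897) against 865 (790 to 945) CPM. Ighm (2094 against 4980 CPM) and Bach2 (160 against 380 CPM) were lower in the gate. Vpreb3 was at 271 (178 to 394) against 2381 (2256 to 2511) CPM and Ebf1 at 952 against 2553. Rag1 and Il7r had no UMI in the gated cells, which allows up to 30.1 CPM, against 184 and 130 CPM outside. Kit, also without a UMI there, was at 14.0 CPM outside, under that limit. A light chain UMI was in all 45 gated cells. Median depth was alike, at 2091 and 2018 UMIs.

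The deposited hscScore, which ranks how much a transcriptome resembles that of LT-HSCs, was 0.137 ± 0.129 (SD over 1162 cells) in the B lineage cells and 0.0895 ± 0.100 in the other adult HP cells. The codes fell apart into high and low ones. Pre/Pro-B2 was at 0.264 ± 0.0785 and Bcell3 at 0.254 ± 0.0860, while Pre/Pro-B1 was at 0.0319 ± 0.0409 and Bcell4 at 0.0416 ± 0.0394. Depth moved with the score: the other adult HP cells went from 0.205 ± 0.0667 under 1000 UMIs to 0.00579 ± 0.0126 at 16000 or more. At 2000 to 4000 UMIs Pre/Pro-B2 was at 0.277 ± 0.0733, Bcell3 at 0.249 ± 0.0817, the other adult HP cells at 0.143 ± 0.0999 and Pre/Pro-B1 at 0.0592 ± 0.0426, so Pre/Pro-B2 and Bcell3 stood above the other adult HP cells, and Pre/Pro-B1 below them, at like depth. The 45 gated Bcell3 cells scored 0.304 ± 0.0927, against 0.152 ± 0.132 in the 87 phLT-HSC-gated cells that did not pass the rule, at median depths of 2091 and 7276 UMIs that were not matched. Cell SDs are no error of a group mean between animals.

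**Figure D4:**
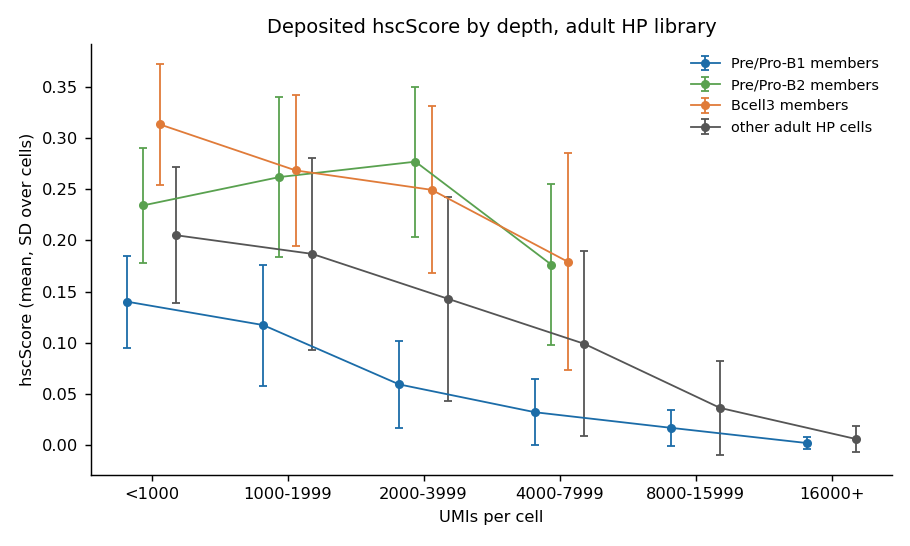
Deposited hscScore (mean and SD over cells) against UMIs per cell in B lineage cells of Pre/Pro-B1, Pre/Pro-B2 and Bcell3 and in the other adult HP cells, for bins of at least 5 cells. At 2000 to 4000 UMIs Pre/Pro-B2 and Bcell3 lie at 0.277 and 0.249, above the other cells at 0.143.

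In the younger HP libraries the same rule took in 485 of 6208 P0 cells (7.81%, 7.16 to 8.51%), 198 of 3477 E18.5 cells (5.69%) and 30 of 560 (5.36%) and 203 of 4752 (4.27%) cells of the E16.5 libraries. The adult share was above each of these, as it was after thinning to 1000 UMIs, at 15.9% in the adult, 5.39% at P0, 4.96% at E18.5 and 3.54% at E16.5. The P0 cells were deeper than the adult ones, with medians of 14418 and 3510 UMIs.

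Adult and P0 rule-passing cells held the rule genes at the same summed level, 3937 and 3950 CPM, which the rule favours. Of 9715 genes 445 (4.58%) were at least 2-fold higher in the adult and 520 (5.35%) lower, with a median of -0.16 on the log2 scale over all genes. Other scalings moved all genes by 0.14 (TMM) or 0.18 (immunoglobulin, mitochondrial, ribosomal protein and ribosomal RNA-like genes left out of the total), and gave 559 higher and 354 lower or 607 and 328. Gm42418, a gene that holds ribosomal RNA repeats, took 101333 CPM in the adult and 2242 at P0. Neutrophil markers summed to 9579 against 297 CPM, all 6 higher in the adult, and mast cell markers to 25.8 against 386 CPM, all 5 lower. Myeloid progenitor markers were 4 of 5 higher, erythroid markers 5 of 6, megakaryocyte markers 2 of 2 and RNA quality genes 4 of 5 (117451 against 8050 CPM). With cells of the B codes alone at both stages, a choice made after seeing the data, 414 of 9053 genes (4.57%) were higher and 482 (5.32%) lower. Neutrophil markers were then at 3216 against 135 CPM, all 6 higher, mast cell markers 5 of 5 lower, myeloid progenitor markers 3 of 5 higher, erythroid markers 1 of 4 and RNA quality genes 4 of 5, and no megakaryocyte marker had enough UMIs. Of the genes with the largest ratios, the neutrophil granule genes Ltf (101 against 0.137 CPM), Chil3 (106 against 0.273) and Ngp (496 against 3.28) and the mast cell genes Cma1 (2.02 against 140) and Cpa3 (12.2 against 107) moved with these markers, whose part was not tested.

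Of the 12 recombination genes Dntt was past 2-fold higher in the adult and Xrcc5, a DNA end-binding gene, lower (9.68 against 23.4 CPM). Dntt was at 410 (396 to 425) CPM against 5.47 (3.91 to 7.45) at P0, 5.50 at E18.5 and no UMI in either E16.5 library, which allows 4.73 and 1.07 CPM. Fetal-type genes went the other way. Of the 6 tested among 10 listed, 5 were at least 2-fold lower in the adult, with a list median of -2.32. Lin28b, the RNA-binding protein of fetal lymphopoiesis, had no UMI in the 1162 adult cells, which allows 0.403 CPM, and was at 23.7 CPM at P0. Hmga2, a chromatin protein whose level Lin28b is known to raise, was at 2.28 against 131 CPM, Igf2bp3 at 22.4 against 107 and Arid3a at 24.2 against 57.6. The levels at E18.5 were 22.6 CPM for Lin28b, 142 for Hmga2 and 92.8 for Igf2bp3. Immunoglobulin constant genes were 5 of 7 higher in the adult, with Iglc1 at 239 against 1.37 CPM and Iglc2 at 291 against 1.23, and mature B genes were 8 of 14 higher. A light chain UMI was in 6.60% of the P0 cells (3.12% after thinning), with kappa alone in 27 and lambda alone in 1, against 43.1% of the adult cells (30.6%), with 167 and 132. The adult level of Iglc2 rested on few cells, since 5 of the 1162 held 50.3% of its adult UMIs (146 CPM without them), as 5 held 52.4% of those of Igkc. None of the 12 pre-B receptor genes was past 2-fold with scaling by totals, while Blnk (220 against 115 CPM) was higher under both other scalings. No S phase or mitosis gene was past 2-fold. Trbc2, a T cell receptor constant region, was at 2.82 against 152 CPM and St3gal6, a sialyltransferase, at 25.8 against 134.

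Several of these genes were also compared between 430 Pre/Pro-B1 cells and 326 P0 cells of code Bcell1, a pair of codes chosen after seeing the data. Dntt was at 516 (494 to 539) CPM in the adult and 3.15 (1.84 to 5.04) at P0. Hmga2 was at 0.992 against 63.4 CPM, Lin28b at 0 against 23.7, Igf2bp3 at 23.6 against 98.0 and Trbc2 at 4.22 against 122. Mki67 (639 and 644 CPM) and Vpreb1 (1333 and 1430 CPM) were alike at the 2 stages, whereas Rag1 was at 45.6 against 176 CPM and Pnp at 262 against 609. Of 8464 genes 212 (2.5%) were at least 2-fold higher in Pre/Pro-B1 and 524 (6.19%) lower. Of the lists, 2 of 5 immunoglobulin constant genes (Igkc and Iglc1) and 2 of 9 mature B genes (Cd72 and Cd74) were higher and Ltb lower, and no B transcription factor was past it. Most UMIs of 3 of these genes in Pre/Pro-B1 came from few cells. Without the 5 highest cells of each group Igkc was at 10.8 against 3.74 CPM (24.8 against 10.7 with them), Iglc1 at 8.35 CPM against no UMI (21.3 with them) and Cd74 at 7.33 against 1.71 CPM (23.6 against 4.82 with them). Of the recombination genes Dntt was higher and Rag1, Xrcc5 and Dclre1c lower, and of the pre-B receptor genes Cd79b was lower. Fetal-type genes were 4 of 5 lower (Lin28b, Igf2bp3, Hmga2 and Arid3a). Neutrophil markers were 6 of 6 higher and RNA quality genes 4 of 5 higher, and their part was not tested. Of the genes that moved with other cell types above, Cma1 had no UMI in Pre/Pro-B1, which allows 0.744 CPM, and was at 72.5 CPM at P0, and Ltf was at 17.1 against 0.185 CPM.

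**Figure D5:**
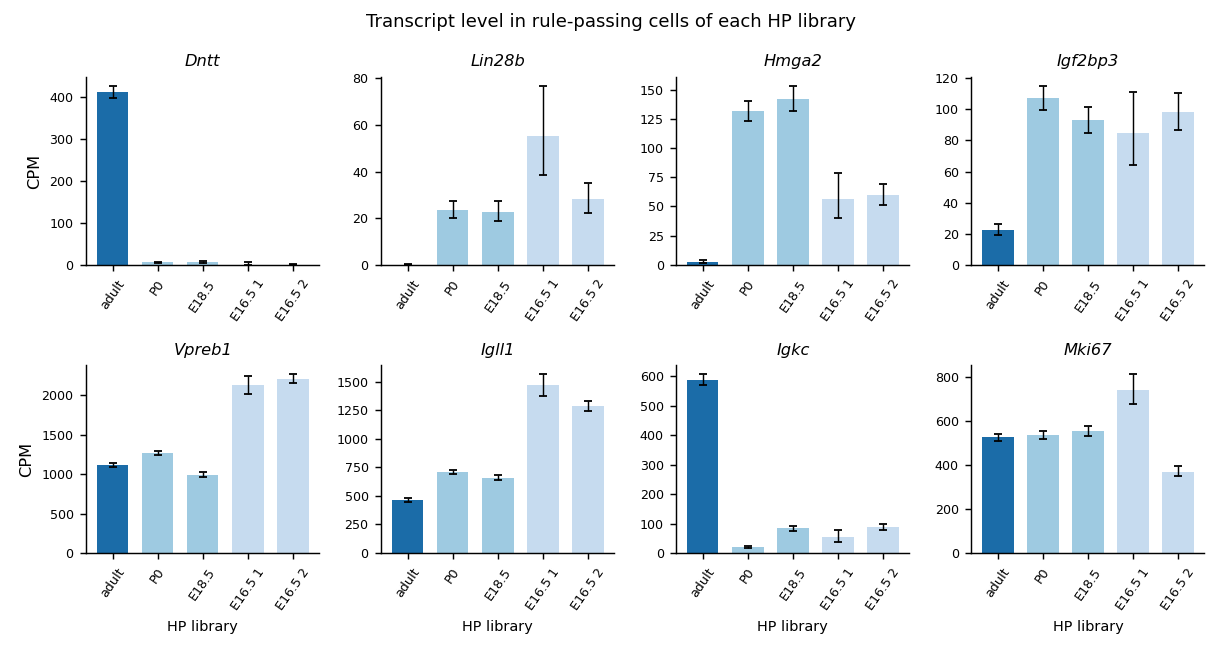
Level of 8 genes in CPM, with exact 95% Poisson intervals, in rule-passing cells of the adult, P0, E18.5 and both E16.5 HP libraries. Dntt and Igkc are highest in the adult (410 and 588 CPM, with 283 CPM of Igkc without its 5 highest cells), and Lin28b, Hmga2 and Igf2bp3 lowest.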

How the data were processed

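Cells were CD45+ Lineage- Kit+ bone marrow HPs of adult, P0, E18.5 and E16.5 C57B6/J mice, each library a pool of several mice sequenced once. The authors aligned reads to mm10 and counted UMIs with Cell Ranger 3.1.0 and filtered them with Seurat 3.1.5 in R 4.0. The deposited matrices hold raw UMI counts per gene and raw antibody tag counts per cell for 20275 genes and 56201 cells. The authors had removed cells with few UMIs, a high mitochondrial share or values at the top of each library, and genes detected in few cells. The top filter is the sole treatment of doublets, and no caller was run here. Deposited per-cell tables gave the library, cluster code, cell cycle phase, the hscScore (a score) and the mitochondrial share as a fraction, which were used as the authors made them. How the lineage antibodies of the HP sort were chosen is given for marrow progenitors in general, where B220 is among them.

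The B lineage cells are adult HP cells with 3 or more UMIs over Cd79a, Ebf1, Pax5 and Vpreb1 and at least 2 of these genes. These cells and the gene lists were chosen with earlier results of these data known. Over each group the UMIs of its cells were summed and scaled to CPM. The 95% intervals of CPM are exact Poisson ones and those of cell shares exact Clopper-Pearson ones. The library is 3′ tagged, so a CPM is compared between groups, not between genes. UMIs at 0 in a group allow up to 3 counts of its total. A gene with at least 50 UMIs in the groups together counted as past the threshold at a 2-fold ratio of CPM, and no p-value was computed, since the adult and every stage but E16.5 have 1 HP library. Named genes are those with the largest ratios among genes at 100 CPM or more in the higher group, 10 in each direction against the other adult HP cells and 5 in the others, beside the listed genes the codes differ in. Other genes shown were chosen after their values were seen. Cells were thinned to 1000 UMIs (fixed seed) where depth could set a share. Antibody counts were centered log-ratio transformed per antibody over the library, and a cell above 1 was positive. Calls were tried on simulated Poisson counts with changes larger than 2-fold in genes with many UMIs. That does not cover genes near 50 UMIs or genes whose UMIs are held by few cells. The scripts ran in Python 3.11.15 (pandas 2.3.3, scipy 1.17.1, numpy 2.4.6, matplotlib 3.10.9), with edgeR 4.0.16 in R 4.3.3 for TMM factors only. Sequences were read with Biopython 1.88 from RefSeq promoters on GRCm38.p6, where 4 of the 4 genes searched were found. A few listed genes are not reported here.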

Additional observations from a re-analysis of the deposited data

Results flagged for a closer look

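Cells that passed the rule were also found in the 4 stroma libraries, sorted as CD45- Ter119- cells, which no comparison of the report uses. They were 36 of 6267 cells in the adult (0.574%), 94 of 14084 at P0 (0.667%), 43 of 6642 at E18.5 (0.647%) and 83 of 8226 at E16.5 (1.01%). There are no control samples for this signal, and its source was not tested.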

How the results depend on the processing

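Of 110 values recomputed under an alternative, 71 stayed within their error or within 1.5 times a count and 39 moved. Changes of direction were not scored. In adult against P0 more genes were lower than higher (445 higher, 520 lower). This turned with TMM (559 and 354) and with the reduced total (607 and 328). The share of B lineage cells among adult HPs (19.4%) was 18.3% with 5 or more UMIs required, 14.8% with 3 genes, 15.9% after thinning, 22.7% among cells with 1000 or more UMIs and, chosen after seeing the data, 21.7% without shared barcodes. The share of them in B codes (90.5%) was 93.1% with 3 genes and 97.0% after thinning. At P0 the rule took 6.86% with 3 genes and 5.39% after thinning, and at E16.5 3.54% after thinning and 4.27 to 5.36% with each library left out in turn.

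Against the other adult HPs (893 genes higher, 1616 lower) there were 1812 and 7932 once B lineage cells with other lineage markers were left out, which left 14 cells, 559 and 1030 at 200 or more UMIs, and 2328 and 4727 with no filter. Adult against P0 (445 and 520) gave 1610 lower in the first setting, 161 and 279 at 200 or more UMIs, 2510 and 2465 with no filter, 699 higher with the mean of single-cell CPM, 328 lower with the reduced total and, chosen after seeing the data, 212 higher between Pre/Pro-B1 and P0 Bcell1. Pre/Pro-B1 had 174 genes higher against all other B lineage cells and 466 against those of the B codes, also chosen after seeing the data. The light chain share (43.1%) was 33.2% with 2 UMIs, 30.6% after thinning and 28.6% in those 14 cells. With CLR levels of 0.75 and 1.5, positive shares were 87.8 and 12.6% for CD48, 21.4 and 7.31% for CD150, 11.1 and 1.55% for CD135 and 43.1 and 19.9% for Sca-1. CD48 was 93.4% with the CLR taken over all HP libraries. The hscScore (mean 0.137) had a median of 0.0929 and a mean of 0.152 over all cells of the B codes. Except where fewer cells or genes entered, the cause was not tested.

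No paired analysis was possible because each stage but E16.5 has 1 HP library and no result comes from a test. A count of 0 allows up to 0.744 CPM in Pre/Pro-B1 and 4.47 to 5.33 CPM in the other B codes, so transcripts without a UMI there are not shown to be absent.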

Other observations

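Some genes not described above differed between the codes. Myl10 was at 306 CPM in Pre/Pro-B2 and 170 CPM in Pre/Pro-B1, against 8.94 CPM in Bcell3 and 4.89 CPM in Bcell4. Adgrg1, an adhesion receptor, was at 357 and 179 CPM in the Pre/Pro-B codes and at 16.4 and 34.2 CPM in Bcell3 and Bcell4. Gm30211 was the reverse, at 310 CPM in Bcell3 and 297 CPM in Bcell4 against 5.46 CPM in Pre/Pro-B1 and 12.4 CPM in Pre/Pro-B2. Mcl1, a survival gene, was at 467 CPM in Bcell3 and 107 CPM in Pre/Pro-B1.

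Ighg2b was found in rule-passing cells of every HP library. It was at 37.7 CPM at P0, 24.2 CPM at E18.5 and 80.3 and 78.9 CPM in the E16.5 libraries, against 23.6 CPM in all adult B lineage cells, and in P0 Bcell1 cells it was at 47.6 CPM against 38.7 CPM in adult Pre/Pro-B1.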
